A study of Homo sapiens with 45 samples.

Results

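The catabolism of the branched-chain amino acids leucine, isoleucine and valine was followed through 10 genes in HCT116 cells, a human colon cancer cell line, after RNA interference against HNRNPK. The genes were chosen by symbol: BCKDHA for its fall in the cells with HNRNPK siRNA, and BCKDHB, DBT, DLD, BCAT1, BCAT2, BCKDK, PPM1K, IVD and MCCC1 for their steps in the same pathway. All 10 symbols were found among the 28278 gene names of the count table of 8 libraries, and 9 of the 10 were among the 13933 genes that passed a filter on low counts. BCAT1 did not pass.

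HNRNPK encodes a nuclear protein that binds RNA and DNA rich in C. The study compared RNA, and chromatin domains at the nuclear lamina and under repressive histone marks, between control and HNRNPK siRNA, each transfected at a final 25 nM with RNAiMAX and collected after 72 hours. It holds 45 samples, of which 35 are chromatin immunoprecipitations or inputs and 10 are RNA libraries. All RNA libraries are from HCT116 cells with no other change of genotype given, 4 with the nontargeting siRNA named siNTC5, 4 with HNRNPK siRNA, and 2 with a nontargeting control named Scramble. Replicates 1 and 2 of siNTC5 and HNRNPK siRNA were made with the TruSeq stranded mRNA kit and replicates 3 and 4 with the Stranded mRNA Ligation kit, here called TruSeq and Ligation. The Scramble libraries, numbered 5 and 6, were made with TruSeq, but their RNA was purified with RNeasy columns and not with the Maxwell instrument, and they were counted in tables of their own. How many siRNA duplexes were used against HNRNPK, and whether replicates were separate cultures, is not given in the sources used here, so p-values measure only the spread between these libraries, which may be technical.

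Counts assigned to genes totalled 12107280 to 23633851 in the 8 siNTC5 and HNRNPK siRNA libraries and 59209169 and 55007171 in the Scramble libraries. Levels are CPM, counts scaled to a common library total, after trimmed-mean scaling. HNRNPK stood at 814 to 967 CPM with siNTC5 and at 157 to 250.3 CPM with its siRNA, a mean of 22.5% of control. The epithelial markers EPCAM, CDH1, KRT8, KRT18, KRT19 and CLDN4 were well above 50 CPM in these 8 libraries, KRT20 was at 0 and VIL1 at most 0.446 CPM. In the Scramble libraries KRT20 had 117 and 96 reads (2.34 and 2.08 CPM), so these libraries stand apart from the siNTC5 controls in a marker too. Of 8 markers of blood, endothelial and stromal cells, CD3E was at 0 and PTPRC, CD14, PECAM1, COL3A1 and DCN at no more than 0.659 CPM, while VWF was at 0.493 to 0.733 CPM with siNTC5 and 1.15 to 2.83 with HNRNPK siRNA. COL1A1 was at 43.5 to 72.3 CPM with siNTC5 and 74.3 to 122 with HNRNPK siRNA. Markers thus moved with treatment: the log2 fold change was 1.49 for VWF, 0.69 for COL1A1, 1.41 for KRT18, 0.98 for KRT8, 0.67 for EPCAM, 0.66 for CDH1, -1.27 for KRT19 and -0.44 for CLDN4, all past the test and, but for CLDN4, without overlap of the groups. Across all tested genes 71.5% passed the same test and 56.5% had groups that did not overlap, so both were common outcomes. The part of these markers in the results on the pathway was not tested.

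Branched-chain amino acids are first stripped of their amino group by the transaminases BCAT1, in the cytosol, and BCAT2, in mitochondria. The resulting keto acids are then committed to breakdown by the mitochondrial branched-chain keto acid dehydrogenase, built from the E1 subunits alpha (BCKDHA) and beta (BCKDHB), the E2 core (DBT) and the E3 subunit (DLD), which is shared with pyruvate dehydrogenase. The kinase BCKDK switches the complex off by phosphorylating the BCKDHA protein and the phosphatase PPM1K switches it on, and the leucine branch then runs through IVD and MCCC1. In bulk RNA, fewer cells that express a gene and less RNA per cell cannot be told apart.

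The promoters of BCKDHA, whose RNA fell most among these genes, of the kinase gene BCKDK and of the E2 gene DBT are shown because their RNA changed by very different amounts after HNRNPK siRNA, as described after them. The sequences are from RefSeq on GRCh38.p14 and run from 250 bases before the transcription start to 50 after it, 5′ to 3′ on the gene's strand. Capitals mark the letters CCAAT or their reverse complement ATTGG, the CCAAT box, and AAGATGGC or its reverse complement GCCATCTT, the core recognised by the factor YY1. The BCKDHA promoter lies at chr19:41397568-41397867 on the plus strand, that of BCKDK at chr16:31108136-31108435 on the plus strand and that of DBT at chr1:100249785-100250084 on the minus strand.

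BCKDHA: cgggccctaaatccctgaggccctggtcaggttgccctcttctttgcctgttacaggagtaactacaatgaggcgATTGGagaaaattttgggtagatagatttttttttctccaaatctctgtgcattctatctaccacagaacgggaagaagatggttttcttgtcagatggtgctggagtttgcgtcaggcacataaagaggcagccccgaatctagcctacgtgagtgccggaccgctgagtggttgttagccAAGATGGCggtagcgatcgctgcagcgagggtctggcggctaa

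BCKDK: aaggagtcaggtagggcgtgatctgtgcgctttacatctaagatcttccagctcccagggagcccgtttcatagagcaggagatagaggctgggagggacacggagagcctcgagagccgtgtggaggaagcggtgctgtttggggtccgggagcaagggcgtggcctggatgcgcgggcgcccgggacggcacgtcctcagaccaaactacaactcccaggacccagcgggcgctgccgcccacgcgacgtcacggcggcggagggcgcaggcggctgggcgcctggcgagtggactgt

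DBT: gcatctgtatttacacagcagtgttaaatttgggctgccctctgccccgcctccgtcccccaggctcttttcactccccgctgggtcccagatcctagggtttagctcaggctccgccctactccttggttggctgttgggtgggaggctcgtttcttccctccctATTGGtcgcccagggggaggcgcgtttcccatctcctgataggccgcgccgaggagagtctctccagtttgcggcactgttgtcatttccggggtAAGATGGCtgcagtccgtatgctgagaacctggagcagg

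AAGATGGC was found in 2.9% of 35116 RefSeq promoters of the same length. Of the 9 genes with a promoter in the table, which has 16 promoters for them and none for BCAT2, BCKDHA and DBT held it, 8 and 12 bases after the transcription start. An ATTGG stood 175 bases before the start of BCKDHA and 84 before that of DBT, and the BCKDK promoter held neither motif. CCAAT or ATTGG was present in 34.6% of all promoters. The GC content was 51.0% for BCKDHA, 66.7% for BCKDK and 59.7% for DBT, against a median of 58.7% over all promoters. Sites of CCCC on either strand, the shortest C-run searched, numbered 1 for BCKDHA, 1 for BCKDK and 7 for DBT, against a median of 5, and 89.6% of promoters held at least 1. The other motifs searched on both strands were GGGCGG (45.0% of promoters), TGACGT (8.0%) and GCGCATGC (3.1%), and none of these 3 was in the BCKDHA promoter. Of the genes with AAGATGGC, BCKDHA fell, and DBT did not pass the test against siNTC5 but was lower against Scramble. Any part of the motif in these changes was not tested. These are matches of letters, not binding sites.

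BCKDHA (chromosome 19, 41397818 to 41425002 on the plus strand of GRCh38) encodes the E1 alpha subunit, which carries out the decarboxylation of the keto acids and bears the phosphorylation sites that BCKDK acts on. It stood at 34.3, 27.8, 35.4 and 35.0 CPM in siNTC5 replicates 1 to 4 and at 5.01, 4.01, 3.04 and 3.38 CPM in HNRNPK siRNA replicates 1 to 4. Every HNRNPK siRNA library was far below every control library, with no overlap. The mean went from 33.1 ± 3.59 (SD, n = 4) to 3.86 ± 0.867 CPM (SD, n = 4), or 11.7% of control, and the log2 fold change was -3.07 ± 0.13 (SE). In raw counts the HNRNPK siRNA libraries held 76, 54, 36 and 41 BCKDHA reads, against 578, 665, 531 and 640 with siNTC5. This log2 fold change ranked 13 from the lowest among 13933 tested genes. The gene was chosen for this fall, so the values are a description and carry no test.

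**Figure D1:**
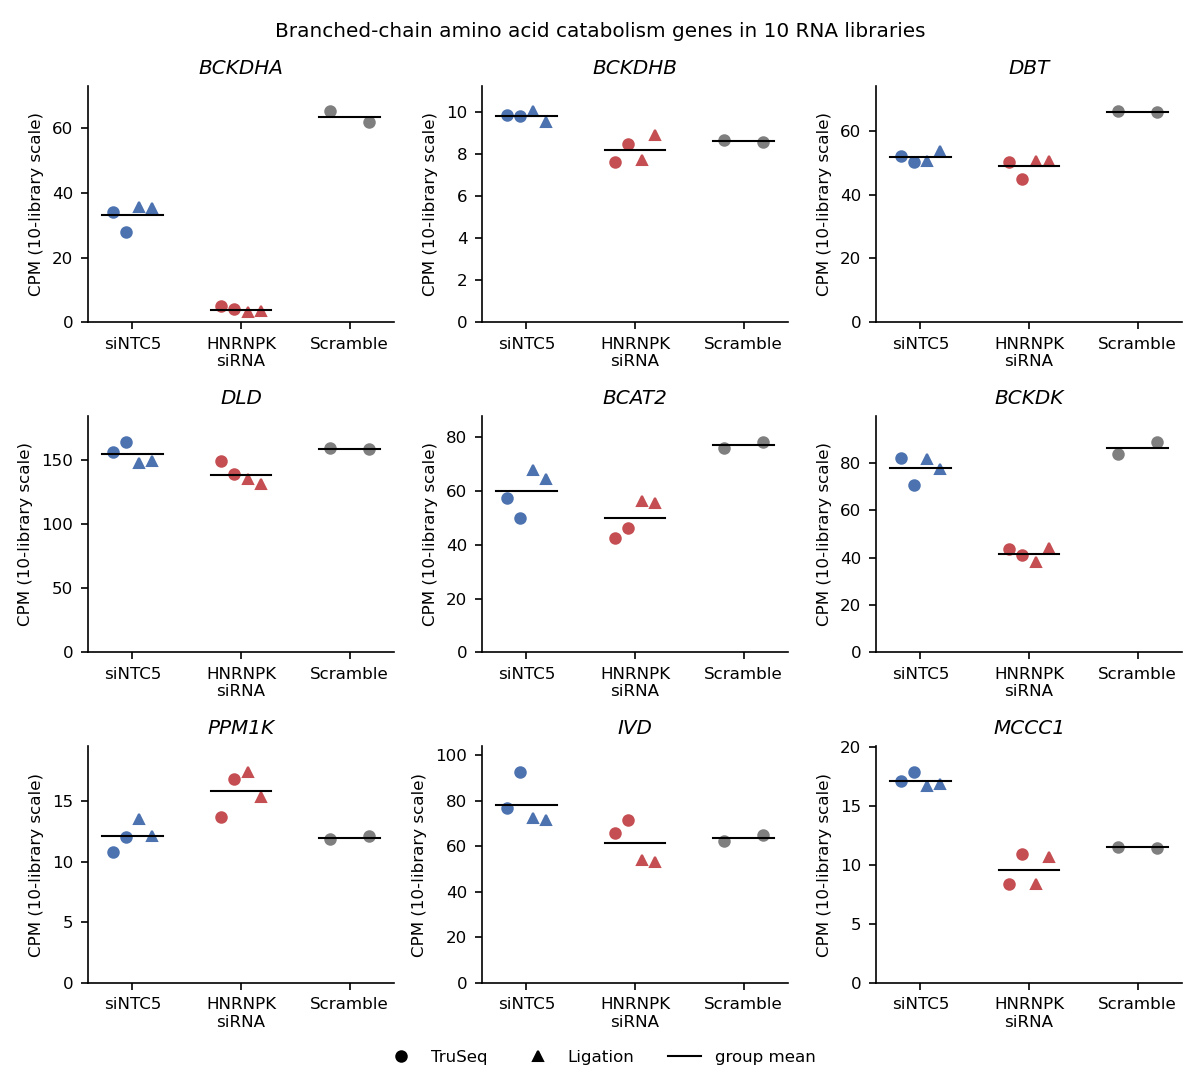
Level of 9 genes of branched-chain amino acid catabolism in each of 10 RNA libraries, in CPM on a scale shared by the 10 libraries, from 0; circles are TruSeq and triangles Ligation libraries, and the black bar is the group mean (4 siNTC5, 4 HNRNPK siRNA, 2 Scramble). BCKDHA is at 3.02 to 5.00 CPM with HNRNPK siRNA, at 27.8 to 35.6 with siNTC5 and at 61.9 and 65.2 with Scramble, while the other genes of the complex move far less.

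The fall was seen with both library kits. Among TruSeq libraries BCKDHA was at 14.5% of siNTC5 (log2 fold change -2.76 ± 0.17), and among Ligation libraries at 9.11% (-3.46 ± 0.14). The difference between the kits was -0.69 ± 0.25 and, on leaving out 1 library at a time, -0.86 to -0.51, again given without a test. HNRNPK itself was at 24.9% of siNTC5 in the TruSeq and 19.6% in the Ligation libraries. This difference had the same direction, -0.34 ± 0.08 on the log2 scale, but did not pass the test of interaction (edgeR adjusted p = 0.1). Its part in the difference for BCKDHA was not tested. Kit and replicate number go together, so the kit and anything else that differed between replicates 1 and 2 and replicates 3 and 4 cannot be told apart.

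The partner subunits of BCKDHA moved little. BCKDHB, the E1 beta subunit that pairs with BCKDHA, was at 9.90, 9.81, 9.99 and 9.47 CPM with siNTC5 and at 7.65, 8.47, 7.76 and 8.98 CPM with HNRNPK siRNA. The ranges lie close together without touching. The log2 fold change was -0.26 ± 0.11 (edgeR adjusted p = 0.0387). This call was weak: with replicate number as a block it was -0.25 (edgeR adjusted p = 0.0507), and it was also lost on leaving out any 1 siNTC5 library or HNRNPK siRNA replicate 1 or 3, with edgeR adjusted p of 0.0522 to 0.0981, and under DESeq2 (adjusted p = 0.101).

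DBT, the E2 core that passes the acyl group to coenzyme A, was at 52.4, 50.0, 50.4 and 53.4 CPM with siNTC5 and at 50.2, 44.7, 50.7 and 50.9 CPM with HNRNPK siRNA. Replicate 2 of HNRNPK siRNA was the low one and the other 3 lay within the control range. The log2 fold change was -0.07 ± 0.06 (edgeR adjusted p = 0.301). DLD, the E3 subunit, was at 157, 164.0, 147 and 148 CPM with siNTC5 and at 149, 139, 135 and 132 CPM with HNRNPK siRNA. The groups overlap through 1 TruSeq library of HNRNPK siRNA, but within each kit both treated libraries were below both controls. Its log2 fold change was -0.15 ± 0.04 (edgeR adjusted p = 0.00499), a fall to 90.3% of control. The E1 alpha RNA was thus at 11.7% of its control level while the other 3 subunits were at 83.9%, 95.3% and 90.3% of theirs.

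The opposing regulators moved in opposite directions. BCKDK, the kinase that inactivates the complex, fell from 82.4, 70.7, 81.1 and 76.6 CPM in siNTC5 replicates 1 to 4 to 43.5, 41.2, 38.2 and 44.4 CPM. No treated library came near the controls. The mean was 53.8% of control, with a log2 fold change of -0.89 ± 0.07 (edgeR adjusted p = 6.91e-10). PPM1K, the mitochondrial phosphatase that reactivates the complex, rose from 10.9, 12.1, 13.5 and 12.04 CPM to 13.8, 16.9, 17.5 and 15.5 CPM. The lowest treated library was just above the highest control. Its mean was 132% of control, with a log2 fold change of 0.39 ± 0.10 (edgeR adjusted p = 0.00142). Activity and phosphorylation of the complex were not measured in these data.

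Of the transaminases, only BCAT2 was expressed at a level that could be tested. BCAT2 was at 57.6, 49.7, 67.3 and 64.0 CPM with siNTC5 and at 42.5, 46.2, 56.3 and 55.7 CPM with HNRNPK siRNA. Ligation libraries were higher than TruSeq libraries in both groups, so the groups overlap, while within each kit both treated libraries were below both controls. The log2 fold change was -0.25 ± 0.06 (edgeR adjusted p = 0.0012), and without the kit in the model the same fold change had an edgeR adjusted p of 0.0805. BCAT1 had 0, 0, 3 and 0 reads in the siNTC5 libraries, 1, 5, 1 and 1 in the HNRNPK siRNA libraries and 0 and 2 in the Scramble libraries. It was at or near 0 in all 10 RNA libraries, with no fold change drawn from such counts.

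Both leucine-branch genes fell relative to siNTC5. IVD, which oxidises isovaleryl-CoA, was at 76.9, 92.6, 71.8 and 71.0 CPM with siNTC5 and at 66.1, 71.6, 54.3 and 53.4 CPM with HNRNPK siRNA. TruSeq libraries were higher than Ligation libraries, and 1 treated TruSeq library reached into the control range. The log2 fold change was -0.35 ± 0.06 (edgeR adjusted p = 4.5e-05). MCCC1, the biotin-carrying subunit of methylcrotonyl-CoA carboxylase, was at 17.2, 17.9, 16.6 and 16.8 CPM with siNTC5 and at 8.37, 10.9, 8.43 and 10.7 CPM with HNRNPK siRNA. The groups were well apart. Its mean was 56.2% of control, with a log2 fold change of -0.84 ± 0.10 (edgeR adjusted p = 8.43e-07).

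Of the 9 genes other than BCKDHA, 8 were tested, 6 fell, 1 rose and 1 did not pass the test, at an adjusted p under 0.05. Across all tested genes 71.5% passed the same test, 36.1% lower and 35.5% higher, so a call as such was the common outcome. The median log2 fold change of the 8 was -0.25, against 0 over all tested genes, and their range was -0.89 to 0.39. None of the 8 fell by 1 or more on the log2 scale, where 8.28% of all tested genes did, and none rose by as much, where 7.47% did. The groups did not overlap for 4 of the 8 (BCKDHB, BCKDK, PPM1K and MCCC1), beside 56.5% of all tested genes. The kits gave like values for these 8 genes, with interaction terms of -0.10 to 0.08, none of which passed a test of the interaction of kit and treatment that called 0.129% of all tested genes.

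**Figure D2:**
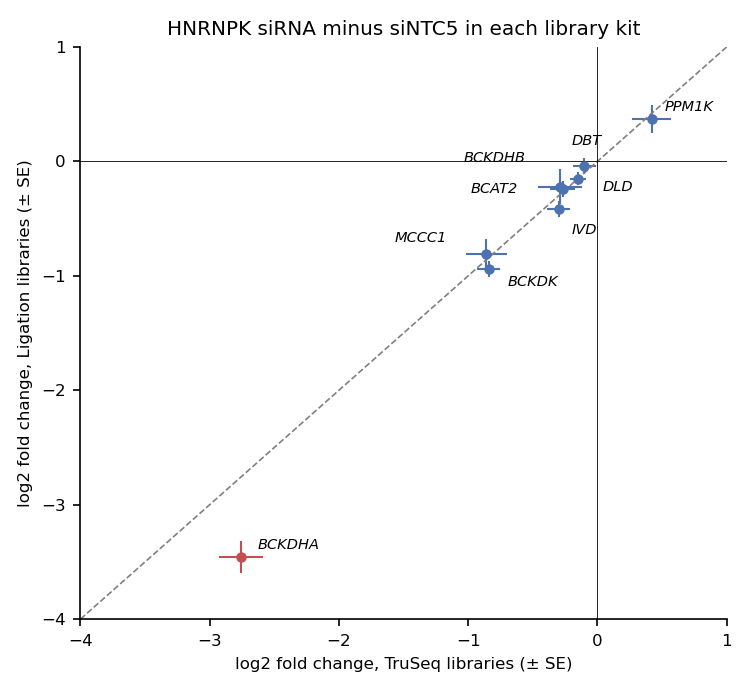
Log2 fold change of HNRNPK siRNA over siNTC5 within the TruSeq libraries (x axis) and within the Ligation libraries (y axis) for the 9 tested genes, with the standard error from edgeR (2 against 2 libraries in each kit) and the line of equal values dashed. BCKDHA lies at -2.76 and -3.46, below the line, and the other 8 genes lie near it.

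The Scramble controls gave a second reference, and the level of BCKDHA differed between the controls. On a scale shared by the 10 libraries BCKDHA was at 65.2 and 61.9 CPM with Scramble and at 34.2, 27.8, 35.6 and 35.3 CPM with siNTC5. Both Scramble libraries were above all siNTC5 libraries, at 1.91 times their mean. With the kit in the model the log2 difference was 1.00 ± 0.09. Scramble has no Ligation libraries, so this difference rests on the TruSeq siNTC5 libraries, among them replicate 2, the lowest. Against Scramble, the HNRNPK siRNA libraries of both kits held 6.06% of BCKDHA, and those made with TruSeq, the kit of Scramble, 7.1%. With the kit in the model the log2 fold change was -3.80 ± 0.12, again set by the TruSeq libraries. Both log2 values are given without a test, since the siNTC5 and HNRNPK siRNA libraries chose the gene. The controls differ at once in purification, depth, count table and possibly genome build, so siRNA sequence, library handling and processing cannot be told apart.

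For the other genes the choice of control set how many fell. Scramble minus siNTC5 was 0.32 for DBT, 0.48 for BCAT2, -0.46 for IVD and -0.66 for MCCC1 on the log2 scale (edgeR adjusted p = 0.00107, 1.19e-04, 2.78e-04 and 6.96e-05). Scramble differed from siNTC5 by -0.23, -0.06, 0.13 and 0.01 for BCKDHB, DLD, BCKDK and PPM1K, none past the test. So 2 of the 8 tested genes were higher and 2 lower with Scramble, in a comparison that called 68.6% of 14263 genes, 33.5% lower and 35.1% higher. HNRNPK siRNA against Scramble lowered 4 of the 8 tested genes, raised 1 and left 3 uncalled, beside 81.6% called, 42.8% lower and 38.8% higher, of all 14217 genes in that comparison. Upper-quartile scaling moved the median of all genes there from -0.04 to 0.14, and under it BCKDHB was at 0.08, DLD at 0.05 and IVD at 0.30, the last past the test (edgeR adjusted p = 0.000181).

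BCKDK fell against both controls, by 0.89 against siNTC5 and by 1.02 against Scramble (edgeR adjusted p = 1.76e-14 for the latter), with Scramble libraries at 83.6 and 88.9 CPM. PPM1K, at 11.9 and 12.1 CPM with Scramble, rose against both, by 0.39 and 0.35 (edgeR adjusted p = 0.00912 for the latter). Without HNRNPK siRNA replicate 2 that second rise was 0.21 and no longer called. The small fall of DLD against Scramble, -0.14 with an edgeR adjusted p of 0.0273, was then -0.08 and no longer called. Scramble has TruSeq libraries only, so that fit leaves replicate 1 as the only HNRNPK siRNA library to set these folds.

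BCAT2 fell by 0.80 and DBT by 0.47 against Scramble (edgeR adjusted p = 3.09e-12 and 5.35e-07), more than against siNTC5. IVD did not follow: Scramble was at 62.4 and 65.0 CPM, and the log2 fold change was 0.12 (edgeR adjusted p = 0.118). The HNRNPK siRNA libraries made with TruSeq, the kit of Scramble, were above both, at 65.9 and 71.7 CPM. Those made with Ligation were at 54.1 and 53.0 CPM. MCCC1 was at 11.5 and 11.4 CPM with Scramble, just above the highest HNRNPK siRNA library, and its log2 fold change against Scramble was -0.25 (edgeR adjusted p = 0.101). Without HNRNPK siRNA replicate 2, which leaves replicate 1 as the only TruSeq HNRNPK siRNA library, this was -0.45. The falls of IVD and MCCC1 against siNTC5 thus did not pass the test against the Scramble controls, and BCKDHB did not either (-0.10, edgeR adjusted p = 0.53).

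**Figure D3:**
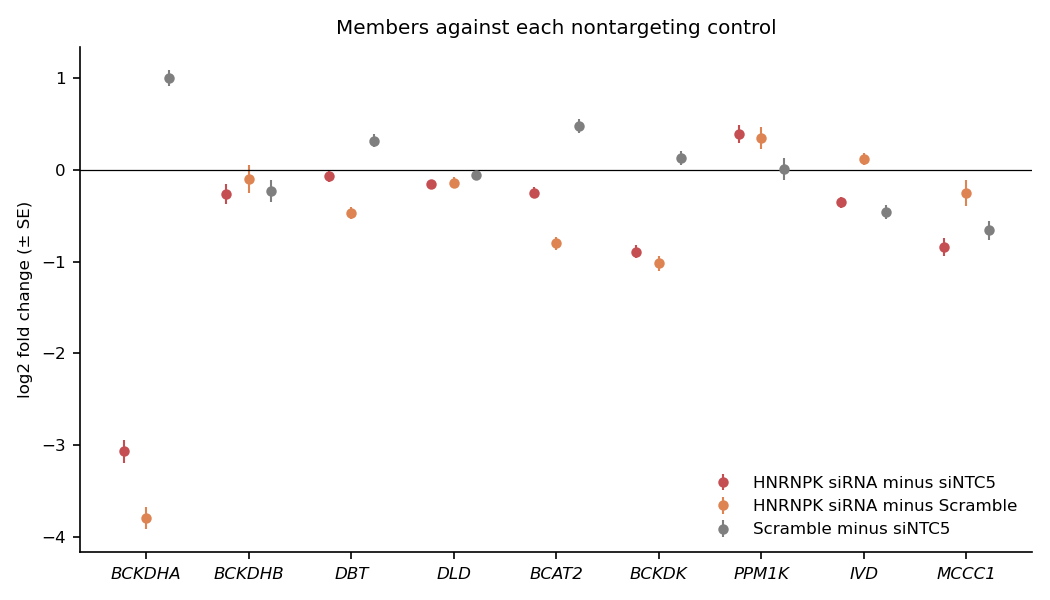
Log2 fold change with standard error from edgeR for the 9 tested genes in 3 comparisons that share libraries: HNRNPK siRNA minus siNTC5 (4 against 4), HNRNPK siRNA minus Scramble (4 against 2) and Scramble minus siNTC5 (2 against 4). Scramble has TruSeq libraries only, so with the kit in the model its comparisons rest on 2 against 2 TruSeq libraries. BCKDHA is lowest in both HNRNPK siRNA comparisons (-3.07 and -3.80) and Scramble exceeds siNTC5 by 1.00, while IVD is below 0 against siNTC5 and at 0.12 against Scramble.

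Beyond the 10 genes, 60 genes of connected steps were listed by role, and 58 were tested. Against siNTC5, 30 were lower, 13 higher and 15 not past the test, with a median log2 fold change of -0.22 and 6 genes lower by at least 1. The background, also for each list below, is again 71.5% of all genes called, 36.1% lower and 35.5% higher, and 8.28% lower by at least 1. The 6 were PC, LIPT2, DHTKD1, MMAB, OGDHL and PDK3. None of the 58 rose by 1 or more, where 7.47% of all tested genes did. Values of connected genes below are against siNTC5 unless Scramble is named. Against Scramble, 58 of the 60 were again tested, not all of them the same genes. There 31 were lower, ACACA and SLC43A2 among them, 18 higher and 9 not past the test. Of all genes in that comparison, 42.8% were lower and 38.8% higher.

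Of the leucine branch, AUH, a hydratase, was lower by a small amount, with a log2 fold change of -0.20 (edgeR adjusted p = 0.0227), and MCCC2, the partner subunit of MCCC1, was at 0.09 (edgeR adjusted p = 0.103).

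In the isoleucine branch and the steps shared with fat oxidation, 5 of 7 genes fell, 1 rose and 1 did not pass, with a median of -0.43. ACAT1, the thiolase that ends isoleucine breakdown, fell by 0.77, ACADSB, its acyl-CoA dehydrogenase, by 0.43 and ECHS1, the enoyl hydratase, by 0.30, while HADHB rose by 0.19. Of the valine genes, HIBADH fell by 0.79 and ALDH6A1 by 0.54, ABAT rose by 0.87, and ACAD8 and HIBCH were at 0.10 and 0.13 without passing, for a median of 0.10. Isoleucine and valine both feed propionyl-CoA, and in that branch 4 of 8 genes fell and 2 rose (median -0.35). PCCB, one of the subunits of propionyl-CoA carboxylase, fell by 0.96, while its partner PCCA was at -0.08 (edgeR adjusted p = 0.394). Of the genes that prepare the vitamin B12 cofactor, MMAB fell by 1.23 to 42.2% of control (edgeR adjusted p = 6.72e-08), MMAA by 0.64 and MMACHC by 0.62, and MMADHC rose by 0.59. Against Scramble, ACADSB, HADHB and MMACHC did not pass the test (-0.10, -0.06 and -0.01, edgeR adjusted p = 0.23, 0.352 and 0.965). The other genes named here as fallen or risen passed it in the same direction. ACAD8 and HIBCH were higher there, by 0.57 and 0.93 (edgeR adjusted p = 4.28e-07 and 9.02e-11).

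The sister complexes that share DLD had a median of -0.60, with 6 of 9 genes lower, 2 higher and 1 not past the test. In the 2-oxoglutarate and 2-oxoadipate dehydrogenases, OGDH fell by 0.94, its relative OGDHL by 1.11, the E2 subunit DLST by 0.60 and DHTKD1, the E1 subunit for lysine breakdown, by 1.24 to 41.9% of control. GCSH, the lipoyl carrier of glycine cleavage, fell by 0.78 against siNTC5, but was at 7.01 and 8.32 CPM with Scramble, below all HNRNPK siRNA libraries, and its log2 fold change against Scramble was 1.44 (edgeR adjusted p = 6.45e-13). In pyruvate dehydrogenase, the E1 alpha gene PDHA1 fell by 0.32, PDHB rose by 0.23, DLAT rose by 0.16 and PDHX was at 0.07. Against Scramble PDHB was at -0.09 and did not pass the test (edgeR adjusted p = 0.157). Among the regulators of pyruvate dehydrogenase, the kinases PDK1, PDK2 and PDK3 fell by 0.69, 0.74 and 1.10 and the phosphatase PDP1 rose by 0.65. The phosphatase subunits PDP2 and PDPR and the kinase PDK4 did not pass the test.

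Genes of the lipoyl cofactor, carried by E2 subunits, were split, with 4 of 9 lower, 2 higher and a median of 0.05. The lipoyl synthase LIAS rose by 0.92 and the lipoyltransferase LIPT1 by 0.65. LIPT2, which starts lipoylation, fell from 0.949 to 1.42 CPM across the siNTC5 libraries to 0.223 to 0.422 CPM (log2 fold change -1.96 ± 0.35, edgeR adjusted p = 6.14e-05), a change within very low counts. Of the biotin enzymes, 4 of 5 fell and 1 rose. ACACA, acetyl-CoA carboxylase, is among the 4 (-0.43, edgeR adjusted p = 0.03), on 52 to 98 reads in the siNTC5 libraries, where the Scramble libraries held 18544 and 16309. PC, pyruvate carboxylase, was at 22.6 to 37.3 CPM with siNTC5 and at 7.43 to 8.41 CPM with HNRNPK siRNA (log2 fold change -1.90 ± 0.11, edgeR adjusted p = 2.04e-11), and it was higher with Scramble than with siNTC5 by 1.00. BTD, which recycles biotin, rose by 0.63.

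**Figure D4:**
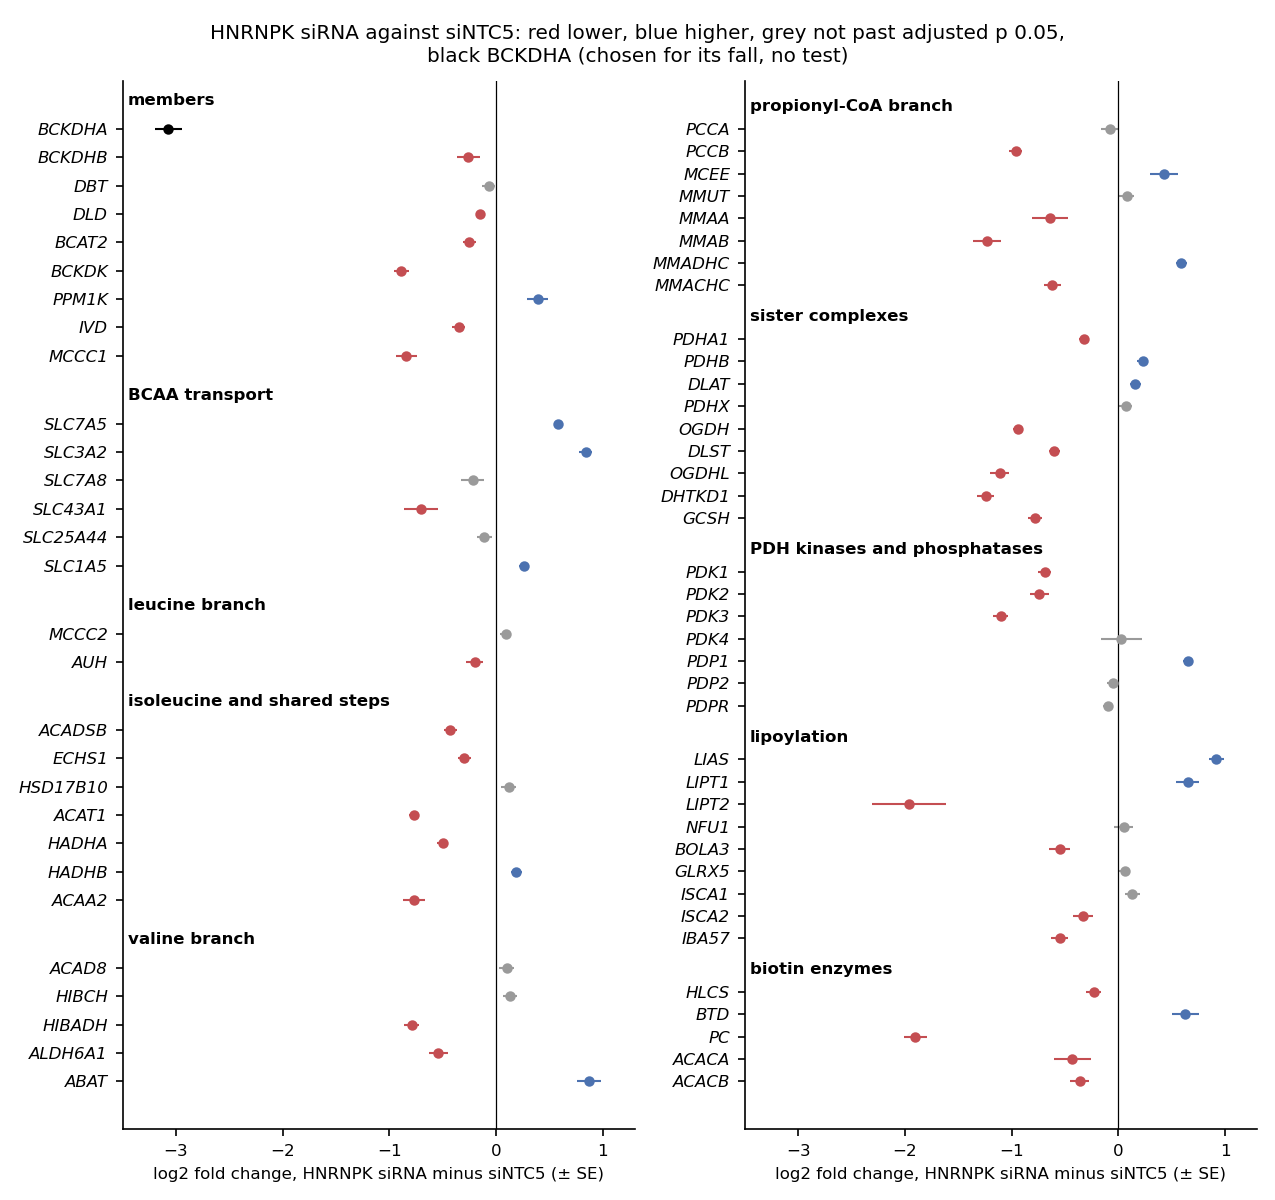
Log2 fold change of HNRNPK siRNA over siNTC5 with standard error from edgeR for the 9 tested genes of the set and 58 connected genes, grouped by role; red is lower and blue higher at an adjusted p under 0.05, grey is not past it, and black is BCKDHA, given without a test. BCKDHA at -3.07, LIPT2 at -1.96 and PC at -1.90 lie lowest, and no gene lies above 1.

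For SLC7A5, SLC3A2 and SLC1A5, plasma membrane transporters of amino acids, the direction depended on the control. The light chain SLC7A5 and its partner SLC3A2, which import leucine, rose against siNTC5 by 0.58 and 0.84, and the glutamine carrier SLC1A5 by 0.26, while SLC43A1 fell by 0.70. Against Scramble all 4 were lower, with log2 fold changes of -1.13, -0.62, -0.86 and -2.15 (edgeR adjusted p = 2.69e-20, 1.92e-12, 5.48e-17 and 9.13e-15), so SLC43A1 kept its direction. Scramble was above siNTC5 by 1.72, 1.58, 1.22 and 1.62. SLC7A8, a related light chain, was at -0.22 against siNTC5 (edgeR adjusted p = 0.0726) and at -0.33 against Scramble (edgeR adjusted p = 0.0247). Part of the distance between the tables was extreme: beside ACACA, SLC43A2 had 3 to 9 reads in the siNTC5 libraries and 1110 and 884 in the Scramble libraries. The folds of these 2 genes against Scramble were not read.

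The genes beside BCKDHA on chromosome 19 changed unevenly. EXOSC5, a subunit of the RNA exosome, starts 0.46 kb before BCKDHA on the opposite strand, and its log2 fold change was -0.05 ± 0.09 (edgeR adjusted p = 0.615). TMEM91, 13.7 kb before, fell by 1.25 ± 0.19 (edgeR adjusted p = 1.13e-05), B9D2 fell by 0.70 ± 0.24 (edgeR adjusted p = 0.0138) and CCDC97, 72.9 kb before, fell by 0.88 ± 0.08 (edgeR adjusted p = 1.21e-08). Without siNTC5 replicate 1, B9D2 was at -0.51 (edgeR adjusted p = 0.0765). TGFB1, between B9D2 and CCDC97, was at 0.02 ± 0.06 (edgeR adjusted p = 0.806).

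On the other side, DMAC2, a mitochondrial assembly factor 6.32 kb after BCKDHA, fell by 1.03 ± 0.07 (edgeR adjusted p = 1.34e-10). B3GNT8, 0.36 kb after BCKDHA, was too low to test, with 8, 12, 5 and 21 reads with siNTC5 and 5, 1, 0 and 0 with HNRNPK siRNA. Of the 6 tested neighbours, 4 were lower and 2 did not pass the test, beside 71.5% called and 36.1% lower of all tested genes, and none fell as far as BCKDHA. The nearest tested gene, EXOSC5, with which BCKDHA shares the space between their starts, was among those that did not pass. Against Scramble the values were -1.02 for CCDC97, -0.40 for TGFB1, -0.92 for B9D2, -0.29 for TMEM91 and -0.68 for EXOSC5, so that EXOSC5 and TGFB1 were lower there (edgeR adjusted p = 3.25e-09 and 1.14e-05) and TMEM91 was not past the test (edgeR adjusted p = 0.441). No RefSeq gene overlaps BCKDHA, DLD, BCKDK or IVD. Whether reads were counted by strand is not given in the sources used here. Reads of BCKDHB, DBT, BCAT1, BCAT2, PPM1K and MCCC1 and of the genes that overlap them therefore cannot be told apart. The same holds for HNRNPK, which RMI1, HNRNPK-AS1 and MIR7-1 overlap. It also holds for many of the connected genes. Among those that fell by at least 1, PC, LIPT2, DHTKD1, MMAB and PDK3 overlap other RefSeq genes and OGDHL does not.

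**Figure D5:**
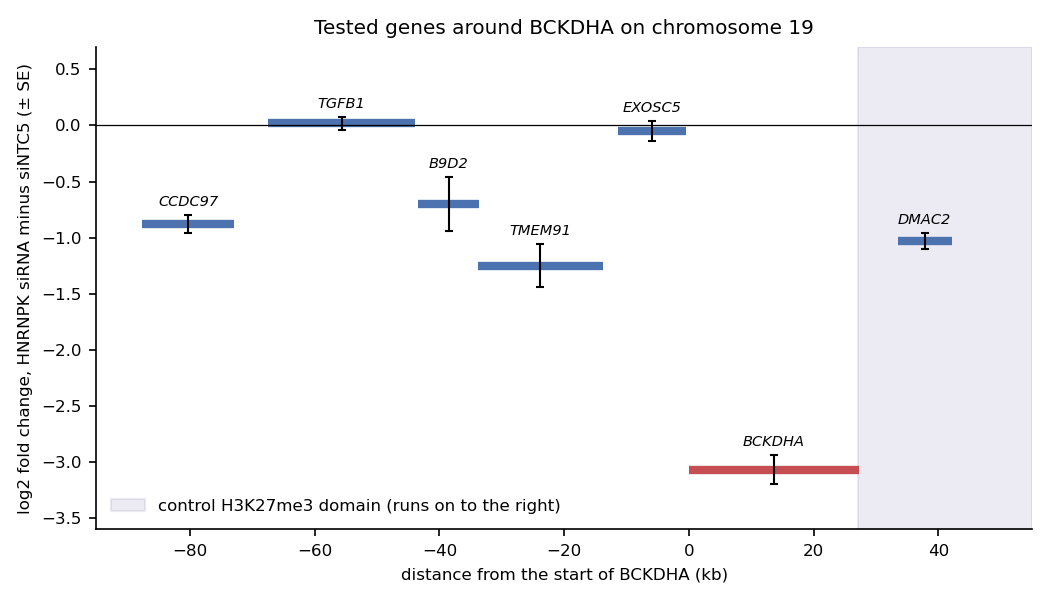
Log2 fold change of HNRNPK siRNA over siNTC5, with standard error from edgeR, for BCKDHA (red) and the 6 tested genes around it (blue), against distance from the start of BCKDHA in kb; each bar spans a gene body and the shaded area is the control H3K27me3 domain. BCKDHA is at -3.07, DMAC2 at -1.03 and EXOSC5 at -0.05.

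The deposited chromatin domains, 1 list for each antibody and siRNA with no replicates, left most of these genes outside any domain. H3K27me3 is the mark laid down by the Polycomb complex, H3K9me2 and H3K9me3 mark heterochromatin, and lamin B1 (LMNB1) lines the nuclear envelope. BCKDHA lay outside all 7 lists but for its last 2 bases. There an H3K27me3 domain began, from 41425001 to 41880000 on chromosome 19 in control cells and to 41870000 after HNRNPK siRNA. Its start was the same in both lists, and DMAC2 lies inside it. DBT, DLD, BCAT2, BCKDK, PPM1K, IVD and MCCC1 had 0 bases in any domain.

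BCAT1, the gene with almost no reads, was the exception. Its body on chromosome 12 lay 100% in an H3K27me3 domain in both conditions. At least 50% of the body lay in one for 9.84% of 13481 tested genes in control cells. That background leaves out genes that, like BCAT1, did not pass the filter on low counts. BCAT1 also lay 64.6% in an H3K9me2 domain in control cells, 71.8% in an H3K9me3 domain in control cells and 61.0% after HNRNPK siRNA, and 35.9% and 14.3% in a lamin B1 domain. For the first 3 of these lists the share of tested genes with at least 50% of the body was 1.2%, 2.94% and 5.9%. The reads stayed at or near 0 with HNRNPK siRNA. BCKDHB lay 22.2% in an H3K9me3 domain listed after HNRNPK siRNA only, chr6:80375001-80455000, and 9.56% of tested genes had at least 1 base in a domain of that list against 4.35% in the control list. With 1 list a condition, no difference between the lists could be tested.

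BCKDHA's pattern over the libraries was shared by many genes. Over the 8 libraries, the genes whose log2(CPM + 1) tracked it most closely were PCDH7, SMG6, RHBDD2, C6orf223 and QSOX1, each with a Pearson correlation of 0.999, and 1512 of 13932 genes exceeded 0.95. With the Scramble libraries added, 976 of 13274 exceeded it, led by H6PD (0.999), RHBDD2 (0.998), QSOX1 (0.997), SMG6 (0.997) and SREBF2 (0.997). The points share the split between HNRNPK siRNA and control, so these values are a description without a test. H6PD, a dehydrogenase of the endoplasmic reticulum, fell by 3.44 and was above siNTC5 with Scramble by 1.14. SREBF2, a regulator of cholesterol genes, fell by 2.05 and was above siNTC5 with Scramble by 0.88. PCDH7, SMG6, RHBDD2, C6orf223 and QSOX1 all fell less than BCKDHA, with log2 fold changes from -1.68 (C6orf223) to -0.77 (SMG6). For these genes Scramble was above siNTC5 by 0.25 (QSOX1) to 0.91 (C6orf223). The correlation does not measure the size of a change.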

How the data were processed

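The authors deposited raw counts, whole numbers per gene symbol, in 1 table of 8 libraries and 1 table for each Scramble library. Per the submitters' processing notes, STAR 2.7.1a and featureCounts were used, with Subread 2.0.6 and hg38 for the 8 libraries and with hg19 and hg38 named for Scramble. Annotation and strand setting are not given in the sources used here. The 7 deposited domain lists carry a score per domain from the authors, which was not used; for ChIP the notes name fastp 0.23.2, Bowtie2 2.5.1, deepTools 3.1.3 and hg38, and no domain caller.

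Members and lists were chosen with earlier results of these data known. Counts were filtered with filterByExpr by group, scaled with TMM factors and fitted in edgeR 4.0.16 (limma 3.58.1, R 4.3.3) on kit and treatment, with its quasi-likelihood F test and Benjamini-Hochberg adjustment over all tested genes at 0.05. Scramble comparisons used the 25527 names shared by the tables, with the kit term and only the 2 groups compared. Scramble has no Ligation libraries, so these folds rest on the TruSeq libraries. The Ligation libraries enter only the kit term and the estimate of spread. SE is the log2 fold change over the square root of F. The connected genes named with values are those past the threshold whose log2 fold change was 1 or more in either direction, and others were named after their values were seen as examples of their list. Listed genes without a value of their own enter the counts and the figure, and 1 gene was taken out of the lists and is not reported here. Likeness was measured on log2(CPM + 1). A gene was in a domain with at least 50% of its body, by RefSeq positions on GRCh38.p14. Libraries of the same replicate number, which share a kit, deviated together (correlation over genes 0.152, 0.531, 0.442 and 0.362, in the order of their numbers; 0.074 and 0.016 within TruSeq and Ligation), so a replicate block was run as an alternative and is given where it changed a call. The Scramble libraries were not 1 library deposited again (mean chi-square per gene 8.44). Alternatives were DESeq2 1.42.0 (size factors, Wald test), upper-quartile scaling, unscaled totals, other filters, robust dispersion, no kit term, Scramble as added controls, each kit alone, each library left out, and other overlap limits for domains. The steps were tested on simulated data. Tables and figures used Python 3.11.15, pandas 2.3.3 and matplotlib 3.10.9.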

Additional observations from a re-analysis of the deposited data

Results flagged for a closer look

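In groups of 4 libraries, a value was picked out when its gap to the nearest other value divided by the group's range exceeded Dixon's critical value, which chance does in about 1 in 20 groups; 3 of 44 groups were picked. BCKDHA in siNTC5 replicate 2 was low, at 27.8 CPM where the other 3 siNTC5 libraries were at 34.3 to 35.4 CPM. DBT in HNRNPK siRNA replicate 2 was low, at 44.7 CPM where the others were at 50.2 to 50.9 CPM. OGDHL in siNTC5 replicate 4 was high, at 29.6 CPM where the others were at 27.2 to 27.5 CPM.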

How the results depend on the processing

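Of 921 values recomputed under alternatives, 844 were taken as kept. For a tested gene this meant the same direction and side of the threshold, and for BCKDHA a change smaller than its spread. A count was taken as kept within a set ratio of the main count. By this rule 6965 called genes with Scramble added to the controls, in place of 9968, was kept. The fall of BCKDHA was -3.41 on the log2 scale with Scramble added to the controls, -2.76 and -3.46 in TruSeq and Ligation libraries alone, and -4.02 against Scramble without the kit term. Under the replicate block 9872 genes were called in place of 9968, and among the 10 genes the block changed only the call of BCKDHB. At a minimum absolute log2 fold change of 1, 2195 genes were called, with 0 of the 8 tested genes lower and 0 higher, and 6 connected genes lower and 0 higher. With Scramble added to the controls, 8 connected genes were higher, and IVD (-0.23, edgeR adjusted p = 0.131) was no longer called. Without the kit term BCAT2 was not called.

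The count of genes with a kit interaction was the least stable: 71 with DESeq2, 239 with no filter, 44 with robust dispersion and 6 to 598 on leaving out 1 library, with the most, 598 and 364, without siNTC5 replicate 2 and 1. Under upper-quartile scaling, 4 of the 8 genes were lower with Scramble than with siNTC5. Of all genes 9810 were called there, 55.7% of the calls were lower and the median log2 fold change was -0.08. Under the same scaling, 2 of the 8 were higher with HNRNPK siRNA than with Scramble. Of all genes 11545 were called there, 43.3% of the calls were lower and the median was 0.14. The cause was not tested.

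Signs turned only for values near 0 that had not passed the test, apart from DLD against Scramble. TGFB1 was -0.02 with no filter, -0.02 with unscaled totals, -0.10 with Scramble added, -0.03 in TruSeq libraries and -0.02 to 0.07 on leaving out 1 library. EXOSC5 was 0.12 in Ligation libraries and -0.14 to 0.06 on leaving out 1 library. For Scramble minus siNTC5, PPM1K was -0.07 with upper-quartile scaling and -0.06 without the kit term, and -0.06 to 0.10 on leaving out 1 library, and DLD was 0 without the kit term. Against Scramble, upper-quartile scaling gave 0.08 for BCKDHB and 0.05 for DLD, and IVD was -0.05 without the kit term.

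Counted by any base in a domain, 2 of the 10 genes lay in H3K27me3 domains of either condition, 2 in H3K9me3 domains after HNRNPK siRNA and 1 in lamin B1 domains of either condition. Counted by whole bodies, 0 lay in H3K9me2 domains and 0 in H3K9me3 domains of either condition. Depth limits BCAT1, B3GNT8 and LIPT2, with few reads a library, and the 36 to 76 BCKDHA reads left after HNRNPK siRNA.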
